A study of Mus musculus with 6 samples.

Results

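The 8 genes described here encode the MiT/TFE transcription factors, Tfe3, Tfeb, Mitf and Tfec, the folliculin complex, Flcn, Fnip1 and Fnip2, and the lysosomal calcium channel Mcoln1. They were taken by symbol from the 55487 genes of the deposited table, and all 8 were among the 15020 genes with a mean normalised count of at least 10 over the 6 libraries. The group was selected on the normalised counts of these same libraries, which were known when it was put together, so the difference of its members between treatments is a description and carries no test.

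RNA was sequenced from bone marrow of C57BL/6 mice that carried MLL-AF9 (MA9) leukemia, an acute myeloid leukemia driven by a fusion oncogene, to ask how the leukemia changes when Brd9, a bromodomain subunit of the ncBAF chromatin remodelling complex, is deleted. All donor cells were CD45.2(+) Mx1-Cre Brd9fl/fl MA9, and all recipients were CD45.1(+) CD45.2(-), so the PBS group carried the floxed allele, the Cre transgene and the oncogene as well. Each recipient was given 1000 leukemia cells and then 3 doses, 1 every other day, of PBS or of pIpC at 20 mg/kg. There were 3 libraries labelled PBS and 3 labelled pIpC, collected 10 days after injection. The labels give GFP+ cells of femora and tibiae, no strand-specific library kit and lethal irradiation as 450 cGy given 2 times, whereas the methods of the study give c-Kit+ cells, stranded libraries and a sublethal dose of 450 cGy to young recipients. No age of the sequenced animals was in the labels. The Mx1 promoter is induced by interferon, and pIpC, a double-stranded RNA mimic, acts by inducing interferon in the whole animal. No library had pIpC without the floxed allele, so an effect of pIpC and an effect of deletion cannot be told apart. The labels do not say whether the libraries of a group came from separate mice, so that p-values measure the spread between these samples, which may be technical.

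The MiT/TFE proteins are basic helix-loop-helix leucine zipper factors that bind E-box sequences with the core CACGTG as homodimers or as heterodimers with one another, and they switch on genes of lysosomes and autophagy. When amino acids are plentiful, mTORC1 on the lysosome phosphorylates them and 14-3-3 proteins hold them in the cytoplasm. Folliculin with FNIP1 or FNIP2 acts on the RagC and RagD GTPases to bring these factors to mTORC1, and calcium released through the MCOLN1 channel activates calcineurin, which removes the phosphates. Control is thus largely by protein location, which RNA counts do not measure. In blood-forming tissue MITF is best known from mast cells and osteoclasts, and TFEC from macrophages.

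Of the 8 genes, 2 hold the core E-box close to a RefSeq start site, and their sequences are shown first because they carry the letters these factors are known to read. They are followed by those of Tfe3 and Tfec, the 2 factor genes whose counts differed most between the groups, in opposite directions. Each line gives the 250 bases before a start site, 5′ to 3′ on the strand of the gene, from RefSeq on GRCm38.p6, and capitals mark CACGTG. The windows are chr8:3500269-3500518 (plus strand) for Mcoln1, chr11:54437929-54438178 (plus strand) for Fnip1, chrX:7762411-7762660 (plus strand, the first of 2 start sites) for Tfe3 and chr6:16898442-16898691 (minus strand) for Tfec.
Mcoln1: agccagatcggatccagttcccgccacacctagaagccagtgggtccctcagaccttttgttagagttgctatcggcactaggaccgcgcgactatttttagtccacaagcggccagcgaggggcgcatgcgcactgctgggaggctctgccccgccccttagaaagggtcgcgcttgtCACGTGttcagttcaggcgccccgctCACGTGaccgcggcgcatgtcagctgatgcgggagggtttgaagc
Fnip1: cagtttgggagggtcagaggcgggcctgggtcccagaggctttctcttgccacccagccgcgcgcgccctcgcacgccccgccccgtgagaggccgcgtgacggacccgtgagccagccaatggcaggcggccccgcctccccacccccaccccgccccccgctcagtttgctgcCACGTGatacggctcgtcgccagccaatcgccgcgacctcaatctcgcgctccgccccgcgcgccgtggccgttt
Tfe3: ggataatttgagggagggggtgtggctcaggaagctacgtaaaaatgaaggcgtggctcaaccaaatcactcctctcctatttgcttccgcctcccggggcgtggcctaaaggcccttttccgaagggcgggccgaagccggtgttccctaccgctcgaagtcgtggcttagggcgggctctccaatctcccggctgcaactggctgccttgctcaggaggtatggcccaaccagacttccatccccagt
Tfec: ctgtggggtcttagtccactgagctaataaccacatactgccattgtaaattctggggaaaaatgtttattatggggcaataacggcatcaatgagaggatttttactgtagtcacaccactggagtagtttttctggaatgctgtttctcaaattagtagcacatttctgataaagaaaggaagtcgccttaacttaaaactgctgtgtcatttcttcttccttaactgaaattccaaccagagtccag
In Mcoln1 the motif began at positions -71 and -45 from the start site, and in Fnip1 at position -75. The letters were searched on both strands in windows from 250 bases before to 50 bases after each start site. CACGTG reads the same on both strands. The other 6 genes had no match in any of their RefSeq windows, of which Tfe3 has 2, Tfeb 3 and Mitf 3. The motif was found in 7.15% of all 32851 RefSeq promoters of this length, and in at least 1 promoter of 11.6% of the 10307 tested genes that have one. The longer form TCACGTG, which contains the core, was found in the same 2 genes and in 3.76% of all promoters. The Tfec stretch is poor in G and C, 39.2% against 59.6% for Tfe3, 61.6% for Mcoln1 and 73.6% for Fnip1. These matches describe letters and not bound sites.

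The libraries held 19277439 to 22378154 reads on genes in the PBS group and 22348517 to 23586722 in the pIpC group. Brd9, the targeted gene, was not lower in the libraries labelled pIpC: its normalised counts were 1926.8, 1946.4 and 1631.9 in PBS and 2036, 2263 and 2011.4 in pIpC, a log2 difference of 0.20 (standard error 0.13, limma, Benjamini-Hochberg adjusted p = 0.259). According to the paper, Cre removes the exons that encode the bromodomain, and this lowered Brd9 mRNA in whole bone marrow of mice without leukemia. In its leukemia model the paper reports poor depletion of Brd9 in GFP+ marrow cells of those pIpC-treated mice that died early. The table counts the whole gene and not single exons, so it does not show whether the bromodomain exons were lost. Every direction below is therefore drawn by label, the pIpC libraries relative to PBS. PBS replicate 3 stood apart from the other 2 PBS libraries, with a chi-square statistic per gene of 216 and 191 against them, compared with 6.82 between those 2. Short transcripts were higher and long transcripts lower in it. With the genes split by length of merged exons into 5 classes of about equal size, the median log2 difference of PBS replicate 3 from the mean of the other 2 was 0.874 in the class of shortest transcripts and -0.674 in that of the longest, whereas PBS replicates 1 and 2 differed by between -0.0547 and 0.0239. Over the same classes the median log2 difference of pIpC from PBS ran from -0.326 in the shortest transcripts to 0.333 in the longest. The median over all genes is therefore no baseline for a list of mostly short or mostly long transcripts. The part of PBS replicate 3 in this trend was not tested. Values without PBS replicate 3 are given below for each of the 8 genes, and for other named genes where leaving it out changed the call or moved the value by more than 1.5 times.

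Markers of other cell types also differed by label. The 8 neutrophil markers, granule and receptor genes such as Ltf, Camp and Ly6g, took 4.71% to 4.92% of a pIpC library's normalised counts and 0.0498% to 0.0871% of a PBS library's, and all 8 were higher. All 7 erythroid, all 7 B cell and the 4 tested T and NK cell markers were also higher. Of the 4 genes of the MLL-AF9 program, Hoxa9, Hoxa10 and Meis1 were lower and Mef2c was higher, with a summed count of 10126 to 10495 in PBS and 1529 to 1614 in pIpC. In a bulk sample, fewer cells of a type and less RNA per cell cannot be told apart, and this holds for every gene below. The part of the cell mixture in the differences of the 8 genes was not tested.

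Of the 8 genes, Tfe3 and Fnip2 were higher, Tfec and Flcn lower, and Tfeb, Mitf, Fnip1 and Mcoln1 had overlapping groups. Passing here means a limma fit over all 15020 genes with a Benjamini-Hochberg adjusted p under 0.1, which 45.3% of all genes tested met, 25.0% higher and 20.4% lower. The 2 higher and 2 lower members stand beside these shares only as a count, since the genes were chosen with the contrast known. For the same reason, passing or not passing in a member, with all libraries or with some left out, is a description and no test. The groups did not overlap in the same 4 members, 2 above and 2 below, and in 56.8% of all genes, 30.5% above and 26.3% below.

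**Figure D1:**
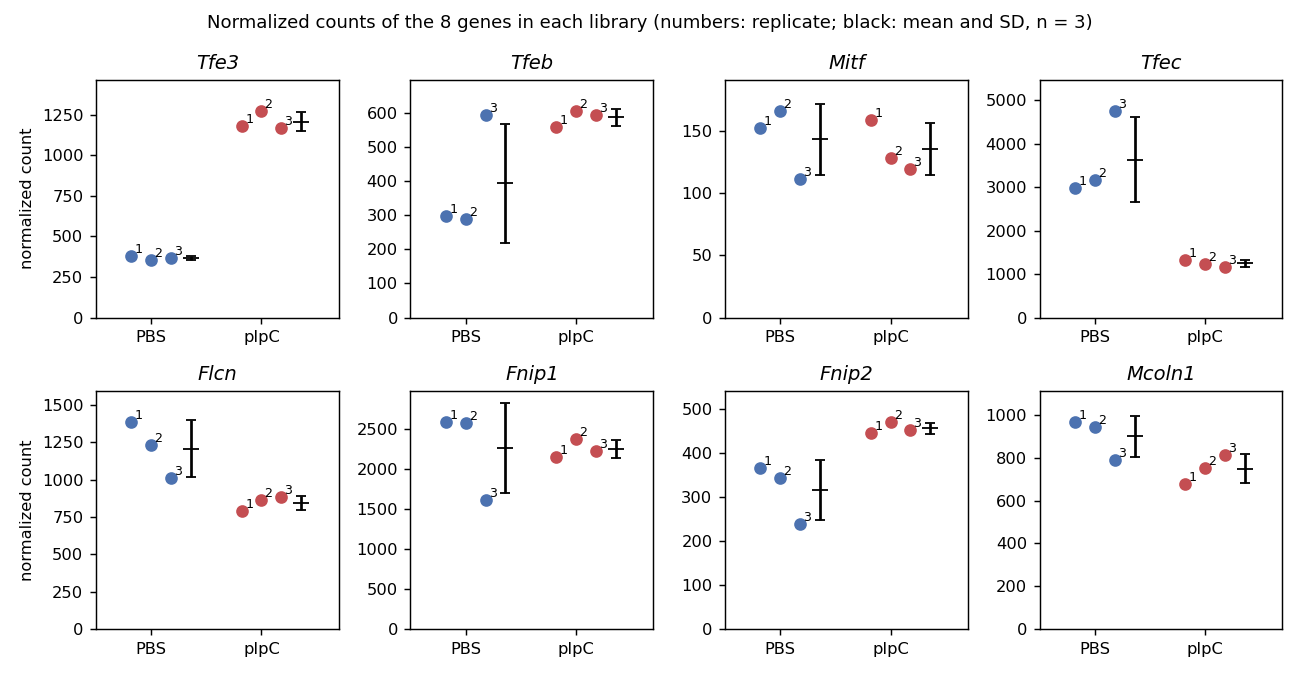
Normalised counts (linear axes from 0, 1 panel per gene) of the 8 genes in each of the 6 libraries; numbered points are replicates, and black marks are the mean and SD (n = 3) of the PBS and pIpC groups. The 3 pIpC points of Tfe3 (1167.2 to 1275.1) lie far above its PBS points (354.27 to 379.83), those of Tfec lie below, and PBS replicate 3 stands away from the other PBS libraries for Tfeb, Tfec and Fnip1.

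Tfe3 (ENSMUSG00000000134, chromosome X, 7762560 to 7775202, plus strand, GRCm38) encodes the broadly expressed factor that is released to the nucleus when folliculin is lost. Tfe3 was counted at 379.83, 354.27 and 367.79 in PBS and 1182.7, 1275.1 and 1167.2 in pIpC, each in the order of replicates 1, 2 and 3. The 2 groups lay far apart and each was tight, with means of 367 ± 12.8 (SD, n = 3) and 1208 ± 58.3 (SD, n = 3), a ratio of 3.29. The log2 difference, the log2 fold change of pIpC over PBS in the fit, was 1.71 (standard error 0.12). It was the widest positive difference among the 8 genes. PBS replicate 3, which departed from its group elsewhere, lay between the other PBS libraries and within 0.0038 of their mean on the log2 scale. Leaving out any 1 library kept the log2 difference of Tfe3 between 1.68 and 1.74.

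Tfec (ENSMUSG00000029553, chromosome 6, 16833373 to 16898441, minus strand) encodes the family member largely restricted to macrophages. It ran the other way, with normalised counts of 2968.5, 3164.1 and 4756.4 in PBS and 1331.4, 1238.3 and 1161.4 in pIpC. Every pIpC library was below every PBS library, and PBS replicate 3 was the highest of all. The means were 3629.7 ± 981 (SD, n = 3) and 1244 ± 85.2 (SD, n = 3), and the log2 difference was -1.51 (standard error 0.20). Without PBS replicate 3 it was -1.30, the smallest change of any left-out library, and the largest was -1.64. Macrophage markers did not move one way beside it. Adgre1, which encodes F4/80, fell from 4155.5 to 4427.3 counts in PBS to 267.68 to 356.31 in pIpC (log2 difference -3.80, limma, adjusted p = 1.7e-05), and Vcam1 fell as well (-0.90, adjusted p = 0.0197). Of the other 8 macrophage markers 7 rose, Csf1r, the receptor for macrophage growth factor, was at 0.09 (adjusted p = 0.639) and at 0.03 without PBS replicate 3, and the summed count of the 10 markers was 11827 to 16116 in PBS and 7889 to 9384 in pIpC. Whether these markers have a part in the count of Tfec was not tested.

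Tfeb (ENSMUSG00000023990, chromosome 17, 47737030 to 47792419, plus strand) encodes a factor known for its control of lysosome formation. Its count was 296.77, 289.49 and 594.12 in PBS and 558.91, 605.86 and 593.74 in pIpC. PBS replicates 1 and 2 were near 1 level, and PBS replicate 3 reached that of the pIpC libraries, so that the groups overlapped at 393 ± 174 (SD, n = 3) and 586 ± 24.4 (SD, n = 3). The log2 difference was 0.66 (standard error 0.29), which did not pass, and without PBS replicate 3 it was 1.00 and passed. At 4016 bases of merged exons Tfeb is a longer transcript, in the length class whose median was -0.272 in PBS replicate 3, while Tfeb itself was 1.02 higher there on the log2 scale. The result for Tfeb thus rested on 1 PBS library.

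Mitf (ENSMUSG00000035158, chromosome 6, 97807052 to 98021349, plus strand) encodes the founding member of the family. It had the lowest counts of the 8 genes, 152.28, 166 and 110.9 in PBS and 158.69, 127.71 and 118.94 in pIpC. The groups overlapped throughout, with means of 143 ± 28.7 (SD, n = 3) and 135 ± 20.9 (SD, n = 3) and a log2 difference of -0.07 (standard error 0.23). Between -0.24 and 0.04 was found when each library was left out. Markers of the cell types best known for Mitf were read beside it. Of 5 melanocyte genes only Pmel was tested, it did not pass (-0.58, and -0.37 without PBS replicate 3), and Tyr and Tyrp1 were at 0 in all 6 libraries. Dct, too low to be tested, was at 9.52, 16.2 and 19.2 in PBS and at 0, 1.02 and 0.967 in pIpC. Mlana, also untested, was at 0.865, 0 and 0 in PBS and at 0, 0 and 0.967 in pIpC. Of 7 mast cell and basophil genes 5 were tested, 4 of them higher, among them Fcer1a, which was at 0 in every PBS library. Tpsb2 was at 0 in all 6 libraries and Cma1 at 0 in PBS and at 1 or 2 reads in each pIpC library, neither of them tested, and the summed count was 783 to 1906 in PBS and 4441 to 6660 in pIpC. Of 6 osteoclast genes 2 were tested, of which Ctsk, encoding cathepsin K, fell (log2 difference -1.93, limma, adjusted p = 0.0133) and Acp5 did not pass (-0.81, and -0.41 without PBS replicate 3), with a summed count of 323 to 826 in PBS and 169.6 to 330.4 in pIpC. The part of these cells in the count of Mitf was not tested.

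Set per length, as normalised count per kilobase of merged exons, Tfec was the most abundant of the 4 factors in both groups, and its lead was much smaller in pIpC. In PBS its level was 2031 per kilobase on average, above Tfe3 at 101 and Tfeb at 98.0, whose ranges overlapped, and Mitf at 26.9. In pIpC the order was Tfec at 696, Tfe3 at 334, Tfeb at 146 and Mitf at 25.4, with no overlap between neighbours. The overlap of Tfe3 and Tfeb in PBS came from PBS replicate 3, where Tfeb was at 148 per kilobase. In PBS replicates 1 and 2 Tfe3 was at 105 and 97.9 and Tfeb at 73.9 and 72.1, which do not overlap.

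The share of each factor in the summed level of the 4 is free of the scale of a library. Tfec held 88.9%, 89.8% and 90.8% of it in PBS and 60.1%, 56.8% and 56.9% in pIpC. Tfe3 held 5.62%, 4.96% and 3.47% in PBS and 26.3%, 28.9% and 28.2% in pIpC, so that the pIpC libraries lay above all PBS libraries by a wide margin. Tfeb held between 3.66% and 5.05% in PBS and between 11.2% and 12.9% in pIpC. Although the counts of Tfeb overlapped, its shares did not. The shares split a fixed total, so a lower level of Tfec by itself raises the shares of the other factors. In PBS replicate 3 the level of Tfeb, 148 per kilobase, was within its pIpC range of 139 to 151. Tfec was at 2662 per kilobase in that library. The share of Mitf was 0.711% to 1.58% in PBS and 1.96% to 2.41% in pIpC, although its level was 26.9 and 25.4 per kilobase on average. The level of Tfec was 15.8, 18.1 and 26.2 times that of Tfe3 in the PBS libraries and 2.28, 1.97 and 2.02 times in the pIpC libraries. The summed level of the 4 genes was 1869, 1972 and 2932 per kilobase in PBS and 1241, 1220 and 1143 in pIpC. These shares come from the same counts as the contrast, and they carry no test.

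**Figure D2:**
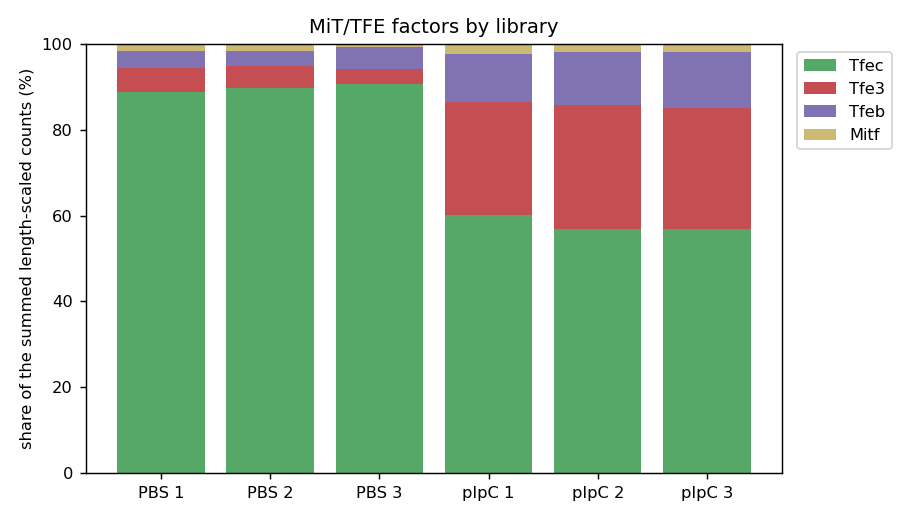
Share (%) of each MiT/TFE factor in the summed length-scaled count of the 4 genes, 1 stacked bar per library. Tfec fills 88.9% to 90.8% of the PBS bars and 56.8% to 60.1% of the pIpC bars, where Tfe3 takes 26.3% to 28.9%.

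Flcn (ENSMUSG00000032633, chromosome 11, 59791408 to 59810016, minus strand) encodes folliculin, the tumor suppressor of Birt-Hogg-Dubé syndrome. Its count was 1384.3, 1229.8 and 1007.2 in PBS and 789.47, 860.26 and 880.94 in pIpC. All pIpC libraries were below all PBS libraries, with the nearest pair, PBS replicate 3 and pIpC replicate 3, not far apart. The means were 1207 ± 189.6 (SD, n = 3) and 844 ± 48.0 (SD, n = 3), the log2 difference was -0.51 (standard error 0.15), and the ratio of PBS to pIpC was 1.43. Flcn passed with all 6 libraries and without PBS replicate 3 (-0.63), and it did not pass when any other single library was left out, at -0.40 without PBS replicate 1, -0.49 without PBS replicate 2, and -0.46, -0.52 and -0.54 without pIpC replicates 1, 2 and 3.

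Fnip1 and Fnip2 encode the folliculin-interacting proteins, which also bind AMPK, and Fnip1 is known to be needed for B cell development. Fnip1 (ENSMUSG00000035992, chromosome 11, 54438199 to 54518235, plus strand) was at 2580.1, 2574 and 1605.8 in PBS and 2145.8, 2375.4 and 2213.5 in pIpC. PBS replicate 3 was the lowest library and PBS replicates 1 and 2 the highest, so the groups overlapped, at 2253 ± 561 (SD, n = 3) and 2245 ± 118 (SD, n = 3). The log2 difference of Fnip1 was 0.03 (standard error 0.20). Without PBS replicate 3 it changed sign and passed, at -0.20. Fnip1 has 6255 bases of merged exons, in the length class whose median was -0.674 in that library, and its own difference there was -0.68.

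Fnip2 (ENSMUSG00000061175, chromosome 3, 79455974 to 79567796, minus strand) was lower in level and moved otherwise. Its count was 366.85, 343.13 and 239.91 in PBS and 447.13, 471 and 452.56 in pIpC. All pIpC libraries were above all PBS libraries, with means of 317 ± 67.5 (SD, n = 3) and 457 ± 12.5 (SD, n = 3) and a log2 difference of 0.55 (standard error 0.19). Fnip2 is the longest of the 8 transcripts, at 7299 bases, and PBS replicate 3 was 0.56 below the mean of the other PBS libraries on the log2 scale. Without that library the log2 difference was 0.36 and passed, a drop of more than 1.5 times. Fnip2 did not pass without pIpC replicate 1, 2 or 3, at 0.57, 0.53 and 0.56.

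The ratio of Fnip1 to Fnip2, both per kilobase, was 8.21, 8.75 and 7.81 in PBS and 5.60, 5.89 and 5.71 in pIpC. PBS replicate 3 was not set apart in this ratio, since both transcripts are long and both were low in it. The ratio did not overlap between the groups, although the counts of Fnip1 did.

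Mcoln1 (ENSMUSG00000004567, chromosome 8, 3500457 to 3515232, plus strand) encodes mucolipin 1, the calcium channel of the lysosomal membrane whose loss causes mucolipidosis. It was at 967.31, 943.36 and 789.9 in PBS and 678.68, 752.98 and 815.18 in pIpC. The groups overlapped only between PBS replicate 3 and pIpC replicate 3, with means of 900.2 ± 96.3 (SD, n = 3) and 749 ± 68.3 (SD, n = 3). The log2 difference was -0.26 (standard error 0.14), which did not pass. Without PBS replicate 3 it was -0.35 and passed. Per kilobase Mcoln1 was second to Tfec among the 8 genes in both groups, at 436 in PBS and 363 in pIpC, with its range overlapping that of Fnip1 in each.

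**Figure D3:**
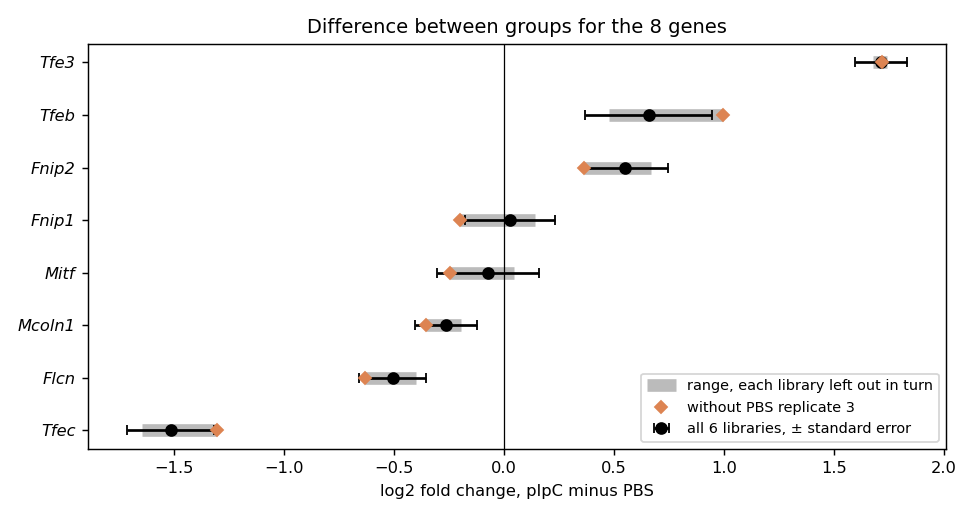
Log2 fold change of each of the 8 genes, pIpC minus PBS, with standard errors as black bars, the range over fits that left out each library as a grey band, and a diamond for the value without PBS replicate 3. Tfe3 (1.71) and Tfec (-1.51) stand at the ends with or without that library, while the diamonds of Tfeb (1.00) and Fnip1 (-0.20) lie away from their points.

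**Figure D4:**
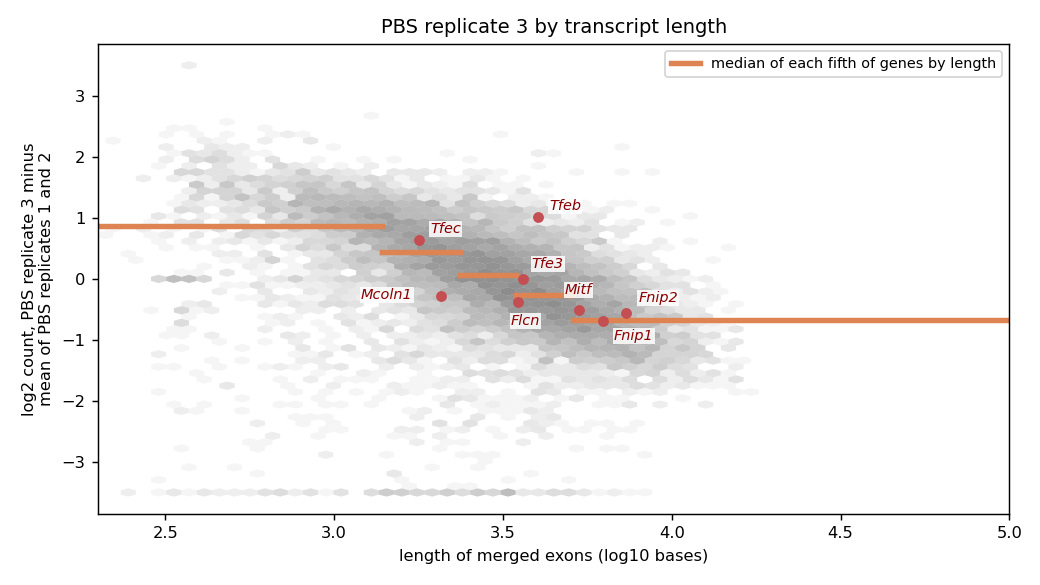
Log2 count of PBS replicate 3 minus the mean of PBS replicates 1 and 2 against the length of merged exons (log10 bases) for the genes tested, shaded by number of genes, with the median of each of 5 length classes as a bar and the 8 genes as points. The 134 genes shorter than 200 bases are not drawn. Values beyond 3.5 in either direction (190 genes below and 9 above, counted before this cut) are drawn at that limit. Medians run from 0.874 to -0.674, and Tfeb lies above and Mcoln1 below the genes of their length.

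In 6 libraries the genes whose profile was closest to a factor, by the root mean square of the log2 differences from each gene's own mean, were a small set out of 10487 compared. For Tfe3 they were Samhd1, which encodes a nucleotide triphosphohydrolase, at 0.051, Nceh1, a cholesterol ester hydrolase, at 0.070, and Apobr at 0.071. For Tfec they were Nr2f6, an orphan nuclear receptor, at 0.064, Tmem254b at 0.066 and Gm2a, the GM2 ganglioside activator of lysosomes, at 0.067. Those for Tfeb were Borcs6, a subunit of the BORC complex that moves lysosomes, at 0.055, Actb at 0.061 and Atp6v1g1, a subunit of the lysosomal proton pump, at 0.066. Mitf was closest to Stard4, Nsun6 and Prps1l3, at 0.047, 0.065 and 0.071. With 3 libraries in each group, such likeness is mainly a like difference between groups and a like value in PBS replicate 3.

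The genes that act on these factors or that they are known to regulate were read in 9 lists. Without PBS replicate 3, 65.4% of all genes passed, 35.2% higher and 30.3% lower, and without any 1 of the other libraries between 30.3% and 44.7% passed, so the counts of a list in those fits are to be read beside these shares. Of 18 Rag, Ragulator and GATOR genes, which bring mTORC1 to the lysosome, 3 were lower and none higher (16.7% against 20.4% of all genes lower), and the median log2 difference was -0.06 beside 0.01 over all genes. Nprl3, of the GATOR1 complex that restrains RagA and RagB, fell from 472 ± 40.5 (SD, n = 3) to 286 ± 38.6 (SD, n = 3), a log2 difference of -0.73 (limma, adjusted p = 0.0137). Mios, of GATOR2, fell by 0.62 on the log2 scale (adjusted p = 0.00815). RagC and RagD, the GTPases on which folliculin acts, had log2 differences of 0.08 for Rragc and 0.00 for Rragd and did not pass. With PBS replicate 3 left out, Rragc was at 0.18 and passed, and Rragd was at 0.20 and did not. The list held 4 higher and 5 lower genes without PBS replicate 3, and its median was then 0.05. Without PBS replicate 2 or pIpC replicate 3, 2 were lower.

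Of 9 genes of mTORC1, Rheb and the TSC complex 1 was higher and none lower (11.1% beside 25.0% of all genes higher). The gene that passed was among the larger changes of all the lists. Mlst8, an mTOR-binding subunit shared by both mTOR complexes, rose from 466 ± 152 (SD, n = 3) to 1580.2 ± 31.6 (SD, n = 3), a log2 difference of 1.82 (limma, adjusted p = 0.00193). Mtor was at 0.37 and Rptor at 0.18, and neither passed with PBS replicate 3 or without it, when they were at 0.10 and -0.08. The median of the list was 0.18, and without PBS replicate 3 it was -0.01 with 1 gene higher and 1 lower. Of 7 AMPK subunits 5 were tested and 1 was higher (20% beside 25.0% of all genes higher). Prkab1, a scaffold subunit, rose by 0.76 on the log2 scale (adjusted p = 0.00263). Leaving out PBS replicate 3 gave 2 higher AMPK subunits and 1 lower.

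Among 11 genes of calcineurin, 14-3-3 and nuclear export, 4 were higher and 1 lower, with a median of 0.20. These are 36.4% and 9.09%, beside 25.0% and 20.4% of all genes. Ppp3cc, the gamma catalytic subunit of calcineurin, fell from 207 ± 18.8 (SD, n = 3) to 84.6 ± 4.71 (SD, n = 3), a log2 difference of -1.28 (limma, adjusted p = 0.00166). Of the proteins that hold phosphorylated MiT/TFE factors in the cytoplasm, Ywhab was higher by 0.45 (adjusted p = 0.0363) and Ywhaz by 0.39 (adjusted p = 0.0609). Neither call held when any single library other than PBS replicate 3 was left out, with adjusted p-values from limma of 0.101 to 0.128 for Ywhab and 0.145 to 0.203 for Ywhaz. In those 5 fits the list held 0 or 1 higher gene, and without PBS replicate 3 it held 5.

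Of 10 genes of endolysosomal channels and the PIKfyve kinase, 9 were tested, 3 were higher and 1 lower, with a median of 0.17. These are 33.3% and 11.1%, beside 25.0% and 20.4% of all genes. The 3 higher genes include Mcoln2, which met the filter through its pIpC counts alone. With a mean normalised count of at least 50 required, 2 were higher and 1 lower. Tpcn1 and Tpcn2, which encode the 2-pore channels of endosomes and lysosomes, were higher by 0.92 (limma, adjusted p = 0.0118) and 0.55 (adjusted p = 0.0314). Tpcn2 did not pass without pIpC replicate 2 or pIpC replicate 3 (0.51 and 0.57). Vac14, the scaffold of PIKfyve, fell by 0.54 (adjusted p = 0.00867). Mcoln2, a paralog of Mcoln1, was at 0.87, 0 and 0 in PBS and at 25.9, 57.2 and 54.2 in pIpC; it was named after its values were seen, and no ratio is given because the PBS libraries held 1 read. Mcoln3 was at 0 in all but 1 library. Of the 9 channel genes 7 passed without PBS replicate 3, 4 higher and 3 lower.

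Of the 18 tested V-ATPase subunits, parts of the pump that acidifies lysosomes, 4 were higher and 3 lower, with a median of 0.10. These are 22.2% and 16.7%, beside 25.0% and 20.4% of all genes. Atp6v0a1 rose from 543 ± 129 (SD, n = 3) to 1560 ± 161 (SD, n = 3), a log2 difference of 1.54 (limma, adjusted p = 0.00122). Atp6v0c was higher by 0.65 (adjusted p = 0.0499), and Atp6v0d1 and Atp6v1h were lower, at -0.84 (adjusted p = 0.0476) and -0.66 (adjusted p = 0.0277). These 3 calls were near the threshold. Atp6v0c passed only with all libraries or without PBS replicate 3, at 0.52 to 0.67 in the other fits. Atp6v0d1 was at 6214 in PBS replicate 3 beside 3140 and 3254 in the other PBS libraries, and its difference was -0.52 without it and passed. Atp6v0d1 did not pass without any 1 of the pIpC libraries (-0.82 to -0.87), nor Atp6v1h without pIpC replicate 2 or 3 (-0.60 and -0.64). The list held 12 passing genes of 18 without PBS replicate 3, 9 higher and 3 lower, where 65.4% of all genes passed, and 3, 3 and 2 without pIpC replicates 1, 2 and 3.

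Lysosomal hydrolases and their cofactors were the list with the most lower genes. Of 30 tested, 13 were lower and 5 higher, 43.3% and 16.7% beside 20.4% and 25.0% of all genes, and the median log2 difference was -0.29. Man2b1, lysosomal alpha-mannosidase, fell from 16768 ± 743 (SD, n = 3) to 7424 ± 648 (SD, n = 3), a log2 difference of -1.18 (limma, adjusted p = 0.00063). Gm2a fell by 1.41 (adjusted p = 0.00224). Psap, the precursor of the saposins, rose from 6661 ± 169 (SD, n = 3) to 17517 ± 947 (SD, n = 3), a log2 difference of 1.39 (adjusted p = 0.000221), and Galc, galactosylceramidase, rose by 1.20 (adjusted p = 0.000659). Man2b1, Gm2a, Psap and Galc passed with any library left out. The list held between 8 and 17 lower genes and between 4 and 6 higher genes over the fits that left out 1 library, with 8 lower and 4 higher without pIpC replicate 3.

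Of 13 tested lysosomal membrane proteins 3 were higher and 3 lower, with a median of 0.07. These are 23.1% each, beside 25.0% of all genes higher and 20.4% lower. Lamp1, a main glycoprotein of the lysosomal membrane, fell from 15700 ± 1381 (SD, n = 3) to 7526 ± 96.1 (SD, n = 3), a log2 difference of -1.06 (limma, adjusted p = 0.000906). Gpnmb, a transmembrane glycoprotein that is a known target of MITF and TFE3, fell from 253 ± 63.6 (SD, n = 3) to 9.27 ± 0.97 (SD, n = 3), a log2 difference of -4.60 (adjusted p = 5.62e-05), the largest difference of the 9 lists apart from Mcoln2. Cln3 and Sidt2 rose by 1.12 (adjusted p = 0.00204) and 0.98 (adjusted p = 0.0039). Without PBS replicate 3 the list held 5 higher and 6 lower genes and its median was -0.16.

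Of 26 autophagy genes 7 were higher and 3 lower, with a median of 0.17. These are 26.9% and 11.5%, beside 25.0% and 20.4% of all genes. Atg7, which activates the ubiquitin-like proteins of autophagosome formation, rose from 799 ± 86.6 (SD, n = 3) to 1579 ± 142 (SD, n = 3), a log2 difference of 0.98 (limma, adjusted p = 0.00172). Atg12, one of those ubiquitin-like proteins, fell by 0.98 (adjusted p = 0.000696). Atg9a was higher by 1.54 (adjusted p = 0.0529). PBS replicate 3 was at 198 beside 787 and 704 in the other PBS libraries, and leaving it out gave Atg9a a difference of 0.90, which passed, whereas it did not pass without any 1 of the pIpC libraries (1.49 to 1.59). Vps11 was lower by 0.35 (adjusted p = 0.0941) and passed only with all libraries or without PBS replicate 3. Sqstm1 and Map1lc3b, the receptor and the membrane marker of autophagosomes, were at 0.19 and 0.16 and did not pass, and without PBS replicate 3 they were at 0.21 and 0.35 and passed. The list held 19 passing genes of 26 without PBS replicate 3, 14 higher and 5 lower, where 65.4% of all genes passed, against 6 without PBS replicate 2 and 4, 4 and 3 without pIpC replicates 1, 2 and 3.

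**Figure D5:**
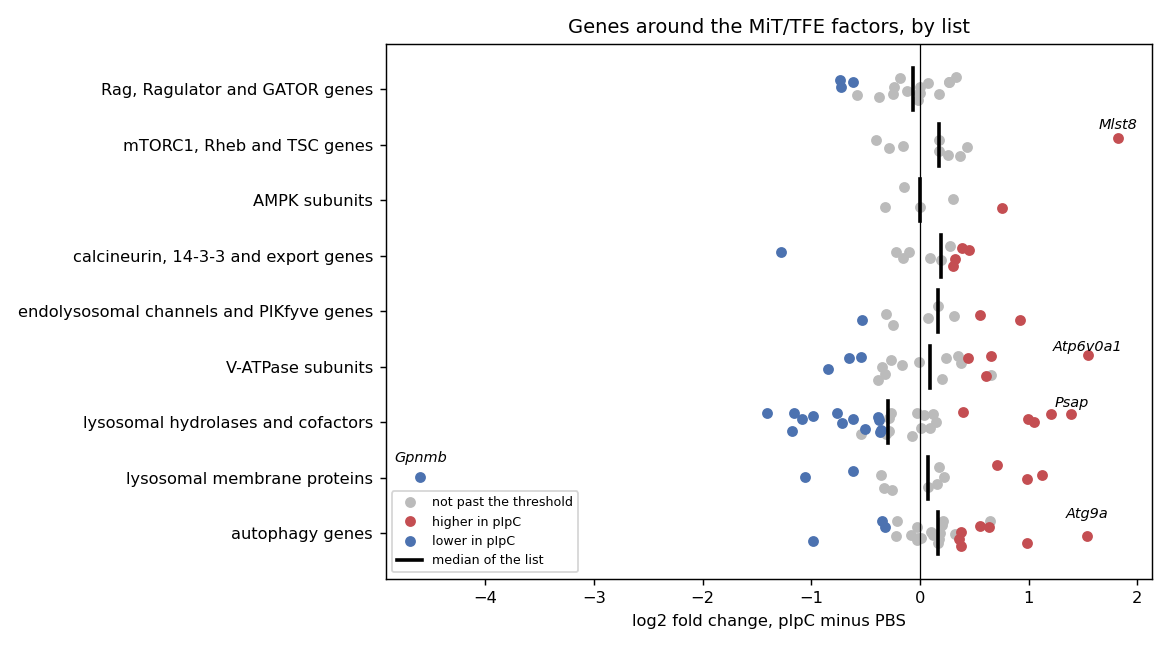
Log2 fold change, pIpC minus PBS, of the tested genes of the 9 lists other than Mcoln2, which has no ratio (1 point per gene, spread vertically for legibility), coloured by whether it was higher, lower or not past an adjusted p of 0.1, with the median of each list as a black line. Medians lie between -0.29 (hydrolases) and 0.20 (calcineurin, 14-3-3 and export), and Gpnmb (-4.60) is far to the left.

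The core E-box of the Mcoln1 and Fnip1 sequences above was found in at least 1 promoter of 26 of the 110 tested list genes with a RefSeq window. Over all tested genes with a window the share was 11.6%. Of those 26 genes, 4 were higher, 8 lower and 14 did not pass, with a median log2 difference of -0.28. Of the 84 without it, 17 were higher, 11 lower and 56 did not pass, with a median of 0.09. Over all genes tested, 25.0% were higher and 20.4% lower. The difference between list genes with and without the motif was not tested. The counts by list also include untested genes with a window, and the motif was in 8.09% of all genes with one. By list it was found in 6 of 24 hydrolase genes, 4 of 13 V-ATPase genes and 4 of 15 Rag, Ragulator and GATOR genes. It was found in 3 of 9 channel genes, 3 of 12 membrane protein genes and 4 of 19 autophagy genes. The remaining lists had it in 2 of 8 genes of mTORC1, Rheb and TSC, and in none of 7 AMPK or 7 calcineurin, 14-3-3 and export genes.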

How the data were processed

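RNA-seq of 6 bone marrow samples was analysed, 3 labelled PBS and 3 labelled pIpC, grouped by sample title. The authors deposited 1 table of gene counts normalised by a size factor per library, used here as a signal. The submitters' processing notes name HISAT2 (version 2.2.1), SAMtools, featureCounts, Subread, edgeR and GRCm38, whereas the methods of the study name nf-core/rnaseq with STAR and RSEM on mm10 and DESeq2, and which of these made the table is not given in the sources used here. Division by each library's smallest step gave whole reads for 100% of values (tolerance 0.001). All 6 columns of sample values were used.

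Genes with a mean normalised count of at least 10 were compared between pIpC and PBS on log2(normalised count + 1) by limma (version 3.58.1, R 4.3.3), with a variance trend on intensity and no block. Fold changes are on that scale and are understated for low genes. P-values were adjusted by Benjamini-Hochberg over all 15020 genes, at a threshold of 0.1. Gene positions and lengths were those of GENCODE M21 on GRCm38, and promoter windows those of RefSeq on GRCm38.p6. Of 212 list genes 211 matched a symbol in the table.

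The 8 members and the 9 pathway and 9 marker lists were chosen with earlier results of these data known. The lists were written from general knowledge. The text names the members, Brd9, for each pathway list up to 2 highest and 2 lowest genes past the threshold with a mean of at least 100 and groups that did not overlap, and the 3 profiles nearest to each factor, and any other gene was chosen after its values were seen. Alternatives were pseudocounts of 0.1 and 10, no filter and a mean of at least 50, quantile normalisation, no intensity trend, each library left out, a replicate block, an adjusted p under 0.05, and, on the recovered reads, edgeR (version 4.0.16) and DESeq2 (version 1.42.0). The scripts were tested on simulated data. After the group means were subtracted, libraries that share a number correlated at -0.117, 0.143 and 0.0405 (replicates 1, 2 and 3), so they were not treated as pairs.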

Additional observations from a re-analysis of the deposited data

How the results depend on the processing

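Over 15 alternatives the 8 members moved by less than the spread between replicates in all 120 comparisons. This compares size only, and the spread includes PBS replicate 3, which widens it. Calls of members, which describe and carry no test, did change. Without PBS replicate 3, Tfeb, Fnip1 and Mcoln1 passed, and Fnip1 changed sign. Flcn lost its call without any 1 of the other libraries, and Fnip2 without any 1 of the pIpC libraries. Of 416 comparisons for the 26 named pathway genes, 377 kept their direction and side of the threshold and 39 kept the direction only. The alternatives gave 5231 to 7910 genes past the threshold over all genes, and 4551 to 9829 with each library left out. Quantile normalisation moved the median of all genes to -0.12 and the split from 3750 higher and 3058 lower to 3244 and 4078. The replicate block, for numbers that do not pair the libraries, gave 6095 genes, 1 calcineurin, 14-3-3 and export gene, 5 autophagy genes, and took Fnip2 below the threshold. Quantile normalisation gave medians of -0.24 (Rag, Ragulator and GATOR), 0.11 (calcineurin, 14-3-3 and export), -0.42 (hydrolases) and 0.045 (autophagy), with 2 mTORC1 and 3 calcineurin genes past the threshold. edgeR gave medians of -0.17 (Rag, Ragulator and GATOR), -0.080 (membrane proteins) and 0.14 (autophagy). DESeq2 gave -0.066 for membrane proteins and 6 Rag, Ragulator and GATOR genes. With no filter the AMPK median was 0.15, with 2 AMPK, 2 calcineurin and 6 autophagy genes, and with no intensity trend 3 calcineurin genes passed. At an adjusted p under 0.05, 2 calcineurin and 5 autophagy genes passed. Leaving out each library gave 2 to 9 Rag, Ragulator and GATOR genes (median -0.23 to 0.046), 1 to 2 mTORC1, 1 to 3 AMPK, 1 to 6 calcineurin (0.062 to 0.25), 3 to 7 channel, 2 to 12 V-ATPase, 5 to 11 membrane protein (-0.16 to 0.13) and 3 to 19 autophagy genes (0.12 to 0.19), and hydrolase medians of -0.36 to -0.25. The highest of each count was without PBS replicate 3. With 3 libraries a group, the lowest member, Mitf, was at 98 reads or more in every library. The cause of these shifts was not tested.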
